A study of Mus musculus with 4 samples.

Results

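The ID proteins and the E proteins they bind were followed through 7 genes: Id1, Id2, Id3, Id4, Tcf3, Tcf4 and Tcf12. Every array probe that carried one of these symbols in the file, or whose accession belongs to one of them, was taken, which gave 18 of the 41174 probes on the array, 8 for the ID genes and 10 for the E protein genes. The study measured total RNA from cultured mouse germline stem cells, a culture model of spermatogonial stem cells, on 4 Agilent 1-colour arrays. Treated cells took 4-hydroxytamoxifen for 48 hours (2 arrays, called OHT) and control cells took the solvent DMSO for the same time (2 arrays). Both groups carried Roa-CreERT2, a recombinase that the compound activates, and CAG-CAT-3FlagNanos2-pA, a construct whose CAG promoter drives tagged Nanos2 after recombination. Both grew on fibroblast feeders from C57Bl6 embryos of day 13.5 with GDNF (20 ng/ml), EGF (20 ng/ml) and FGF2 (10 ng/ml), and feeders were removed before extraction. No group took the compound without the construct, so what Nanos2, 4-hydroxytamoxifen and the active recombinase each did cannot be told apart.

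E proteins are basic helix-loop-helix transcription factors that bind E-box DNA as dimers, often with a tissue-specific partner of the same fold. ID proteins carry the helix-loop-helix but lack the basic region, so a dimer of an ID and an E protein does not bind DNA. BMP signalling through SMAD proteins is a known activator of Id genes, and ID4 marks the stem cell fraction of mouse undifferentiated spermatogonia.

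The probes below are shown because they are what the array read for the genes described next; each is 60 bases, written 5′ to 3′ with no base marked. The Id2 and Id3 probes spread over 348 and 175 bases of the genome, so each crosses a gap between exons, while the Tcf3 probe lies in 1 block. Positions are as the files give them (mm9).
Id2, A_51_P219074 (chr12:25780183-25780530, minus strand): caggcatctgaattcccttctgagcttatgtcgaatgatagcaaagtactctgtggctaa
Id3, A_51_P380178 (chr4:135700075-135700249, plus strand): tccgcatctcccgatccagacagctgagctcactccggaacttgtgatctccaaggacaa
Tcf3, A_52_P141662 (chr10:79875963-79876022, minus strand): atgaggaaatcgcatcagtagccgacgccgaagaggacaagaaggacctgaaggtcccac

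RefSeq promoter sequences (GRCm38.p6) matched 5 of the 7 genes by symbol; Id1 and Tcf4 were without an entry. The 250 bases before the start site are shown for the 4 of them whose transcript level passed the test below, with each E-box, the site that E proteins bind (letters CANNTG, which read the same on both strands), in capitals. One E-box stood before Id2, as CAGCTG at -196 from the start site, and 1 before Tcf3, as CACTTG at -54. Id3 and Id4 had 0 in this window, and 2 of the 3 windows of Tcf12 had 1. Of 32851 promoter windows of this length, 66.2% held an E-box. The palindrome GGCGCC, a core of SMAD-bound elements, occurred once before Id2 (-231) and once before Id4 (-148), against 9.59% of all windows.
Id2 (chr12:25096093-25096342, minus strand): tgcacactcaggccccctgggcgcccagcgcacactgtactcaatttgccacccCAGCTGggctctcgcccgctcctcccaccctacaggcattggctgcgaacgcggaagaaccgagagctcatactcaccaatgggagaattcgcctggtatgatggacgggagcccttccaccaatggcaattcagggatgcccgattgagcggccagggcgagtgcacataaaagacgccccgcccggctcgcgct
Id3 (chr4:136143572-136143821, plus strand): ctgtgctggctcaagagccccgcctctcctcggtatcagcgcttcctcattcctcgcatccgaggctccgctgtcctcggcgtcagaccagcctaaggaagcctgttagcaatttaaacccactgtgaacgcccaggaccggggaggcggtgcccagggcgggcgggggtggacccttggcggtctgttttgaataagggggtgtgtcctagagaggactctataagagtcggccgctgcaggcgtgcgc
Id4 (chr13:48260866-48261115, plus strand): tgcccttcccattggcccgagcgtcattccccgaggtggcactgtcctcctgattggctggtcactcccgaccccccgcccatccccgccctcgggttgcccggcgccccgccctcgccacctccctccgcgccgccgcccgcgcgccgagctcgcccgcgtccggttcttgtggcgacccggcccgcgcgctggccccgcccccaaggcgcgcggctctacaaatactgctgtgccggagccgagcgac
Tcf3 (chr10:80433636-80433885, minus strand): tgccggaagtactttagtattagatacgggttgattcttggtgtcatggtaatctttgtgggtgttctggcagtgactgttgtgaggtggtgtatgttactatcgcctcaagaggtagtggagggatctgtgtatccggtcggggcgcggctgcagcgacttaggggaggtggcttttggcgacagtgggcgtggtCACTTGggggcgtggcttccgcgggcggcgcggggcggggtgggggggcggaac

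Values are normalised signals, the scanner's processed intensities scaled to a common 75th percentile of 723 units, and differences are log2 (OHT minus DMSO) followed by the standard error from limma, with 2 arrays in each group. Between 62.1% and 65.9% of spots were well above background, and 0 were saturated. Nanos2 read 927 and 1096 in the OHT arrays, against 346 and 342 in the DMSO arrays, a rise of 1.55 ± 0.11 (limma adjusted p = 0.00101 over all probes). Whether the construct holds the sequence that this probe reads was not determined. The germ cell markers Ddx4 and Dazl were well above background on all 4 arrays; Ddx4 did not pass the test (-0.17 ± 0.08, limma adjusted p = 0.12) and Dazl fell (-1.41 ± 0.06, limma adjusted p = 0.000507).

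Among the 7 genes, each read by its brightest probe, Id2 and Tcf4 were higher in OHT cells, Id3, Id4 and Tcf3 were lower, and Id1 and Tcf12 did not pass the threshold (limma adjusted p under 0.05). Across all 17537 genes 69.5% passed, 40.3% as higher and 29.3% as lower, so 5 of 7 is close to the background share. OHT and DMSO arrays were separate, with no overlap, for 7 of 7 genes, against 86.5% of all genes. The median difference of the 7 was -0.07, and that of all genes 0.11. The ID genes therefore did not move as a block, nor did the E protein genes: each family held both a gene that rose and a gene that fell. In RNA from a bulk culture, fewer cells of a type and less RNA per cell cannot be told apart.

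**Figure D1:**
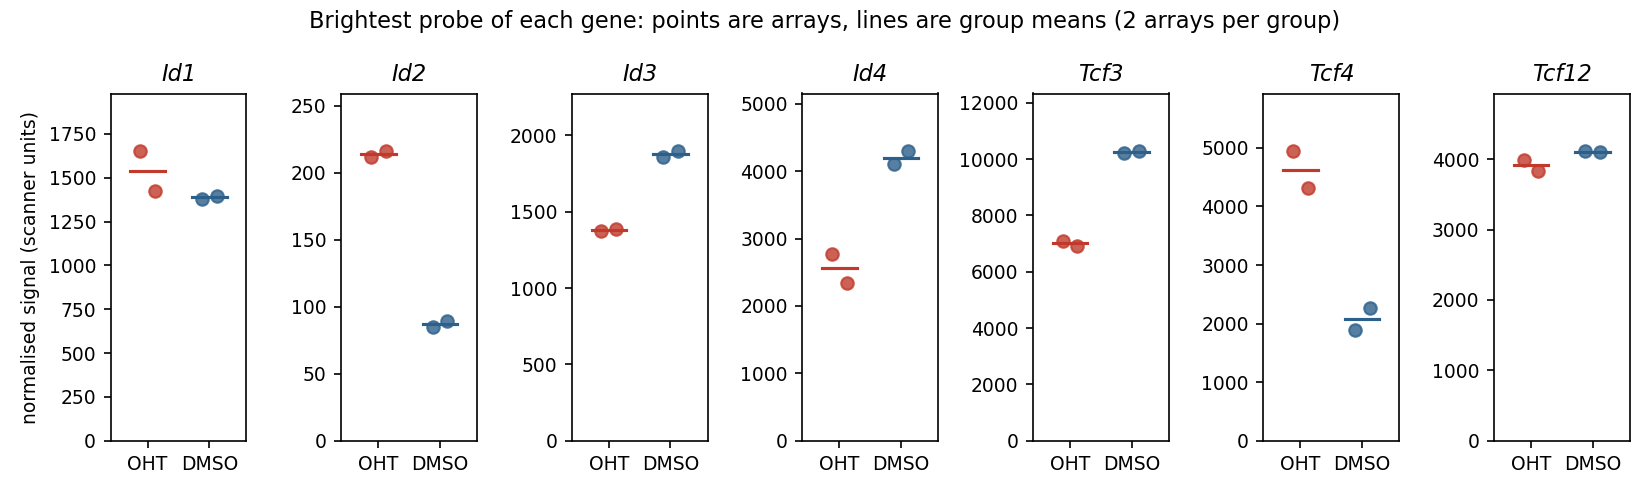
Normalised signal in scanner units (vertical axes from 0, one scale per gene) of the brightest probe of each gene in the 2 OHT and 2 DMSO arrays; points are arrays and lines are group means. Both OHT arrays of Id2 (212 and 216) and of Tcf4 (4942 and 4314) lie above both DMSO arrays, and those of Id3, Id4 and Tcf3 lie below.

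Id2, an ID protein that besides E proteins can bind the retinoblastoma protein, rose the most of the 4 ID genes. Its brightest probe, A_52_P240542, read 212 and 216 in OHT cells, against 85.0 and 89.7 in DMSO cells. The arrays within a group differed by a few units and the groups were far apart: Id2 averaged 214 ± 3.06 in OHT cells and 87.3 ± 3.33 in DMSO cells (SD, n = 2 each), a difference of 1.29 ± 0.07, or 2.45-fold (limma adjusted p = 0.000597). That is a larger change, in either direction, than 85.7% of all genes showed. The exon-crossing Id2 probe printed above read 118 and 116 in OHT cells, against 38.4 and 54.2 in DMSO cells, a difference of 1.36 ± 0.18 (limma adjusted p = 0.00421 over all probes), which was 0.74 with normexp background correction, a model-based alternative. Another probe, designed on a RIKEN cDNA that the files also assign to Id2, was not well above background on any of the 4 arrays and was not tested.

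Id4, the ID protein of the stem cell fraction, fell. Its brightest probe, A_52_P449871, read 2776 and 2341 in OHT cells, against 4111 and 4295 in DMSO cells. All 4 readings were well above background, and the higher OHT array stayed well below the lower DMSO array. The difference was -0.72 ± 0.11, a fall of 1.65-fold (limma adjusted p = 0.00525). The second Id4 probe, A_51_P494430, which lies further along the same transcript, read 190.1 and 209 in OHT cells, against 399.5 and 459 in DMSO cells. It gave a larger fall, -1.10 ± 0.11 or 2.15-fold (limma adjusted p = 0.00179 over all probes), in the same direction. With normexp A_52_P449871 gave -0.69 and A_51_P494430 gave -0.92, and the difference in size between the probes was not tested.

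Id3, which like Id1 is a well-known BMP target, fell by a smaller amount. Its only probe, the exon-crossing one printed above, read 1372 and 1384 in OHT cells, against 1860.2 and 1896 in DMSO cells. The arrays of each group lay close together and the groups did not overlap. The difference was -0.45 ± 0.06, a fall of 1.36-fold (limma adjusted p = 0.004), and 42.7% of all genes showed a smaller change.

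Id1 did not pass. Its brightest probe, A_51_P385786, read 1650.5 and 1427 in OHT cells, against 1378 and 1398 in DMSO cells, a difference of 0.14 ± 0.09 (limma adjusted p = 0.236), close to the median of all genes. The OHT arrays did not overlap the DMSO arrays but were themselves far apart, and the value was 0.04 without OHT replicate 1 and 0.25 without OHT replicate 2. The second probe, A_52_P533809, shares 50 of its 60 bases with the first and is no independent reading. It read 1792 and 1355 in OHT cells, against 1281 and 1294 in DMSO cells (0.28 ± 0.15, limma adjusted p = 0.182 over all probes), and without OHT replicate 2 it passed (0.48, limma adjusted p = 0.027).

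Of the E proteins, Tcf3, which encodes E12 and E47 by alternative splicing, fell. Its brightest probe, A_51_P394471, read 7102 and 6927 in OHT cells, against 10227 and 10276 in DMSO cells. Arrays of a group lay close together and the groups were far apart, 1.46-fold, a difference of -0.55 ± 0.06 (limma adjusted p = 0.00235). The second probe, the one printed above, read 755 and 803 in OHT cells, against 1404 and 1380.3 in DMSO cells. Its difference of -0.84 ± 0.07 (limma adjusted p = 0.00148 over all probes) had the same direction and was larger.

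Tcf4, which encodes the E protein E2-2 (mouse chromosome 18), rose. Its brightest probe, A_51_P265137, read 4942 and 4314 in OHT cells, against 1895 and 2273.5 in DMSO cells. The groups were well separated although both were more scattered than for Tcf3, with means of 4628 ± 444 in OHT cells and 2084 ± 268 in DMSO cells (SD, n = 2 each). The difference was 1.15 ± 0.13, or 2.22-fold (limma adjusted p = 0.00244), larger than that of 81.3% of all genes. A second probe, A_52_P424847, read 1631 and 1387 in OHT cells, against 688 and 758 in DMSO cells (1.06 ± 0.11, limma adjusted p = 0.00236 over all probes). Probe A_52_P521101, which lies nearer the start of the transcript, was well above background on 1 OHT array and on 0 DMSO arrays and was not tested.

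Tcf12, which encodes the E protein HEB, gave different answers by probe. The brightest probe, A_52_P20048, read 3994 and 3828 in OHT cells, against 4111 and 4103 in DMSO cells (-0.07 ± 0.06, limma adjusted p = 0.364). A second probe of the same RefSeq transcript, A_51_P310135, read 533 and 545 in OHT cells, against 709.8 and 707 in DMSO cells, a fall with a difference of -0.39 ± 0.07 (limma adjusted p = 0.00761 over all probes). Both sets of arrays are tight, so the 2 probes differ by more than their replicates do, although that difference was not tested.

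The other Tcf12 probes were designed on cDNA clones. A_52_P859153 read 232 and 191 in OHT cells, against 266 and 322 in DMSO cells (-0.48 ± 0.15, limma adjusted p = 0.0496 over all probes), and its call was lost under 6 of 13 alternatives. A_52_P182979 was not well above background on either OHT array (10.2 and 4.57) and read 28.6 and 28.7 in DMSO cells, at least 1.63-fold lower in OHT cells. It entered the test only through the DMSO arrays, where it was higher, so its test is not independent of the filter, and it was -0.30 with normexp. For such a probe the bound sets the brighter group against the lowest signal that counted as well above background. A_52_P182987 was not well above background on any array. Over the 18 probes of the 7 genes, 15 were tested, 4 were higher, 8 lower (A_52_P182979 among them) and 3 not called, against 67.3% of all tested probes called.

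**Figure D2:**
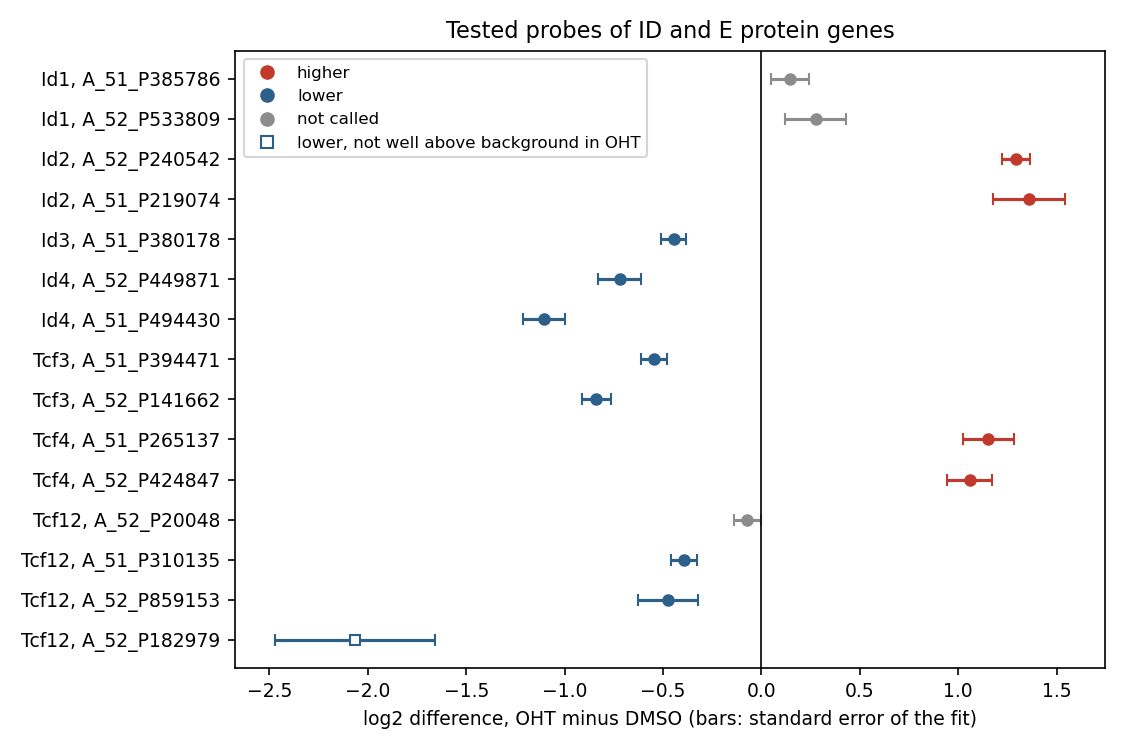
Log2 difference, OHT minus DMSO, of each of the 15 tested probes, one row per probe, with the standard error of the fit as bars; red is higher, blue lower and grey not called, and the open square marks a probe not well above background in OHT cells. Both tested probes of Id2 and of Tcf4 lie right of 0, those of Id3, Id4 and Tcf3 lie left of 0, and those of Tcf12 spread between -0.07 and -2.07.

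The calls of Id2, Id3, Id4, Tcf3 and Tcf4 were kept with the same direction under each of the 14 alternatives. Id2 ranged from 0.92 to 1.33, Tcf4 from 0.97 to 1.29, Id4 from -0.91 to -0.60, Tcf3 from -0.73 to -0.53 and Id3 from -0.63 to -0.43. Scaling on the array median lowered the median of all genes by 0.18 and scaling on spike-in RNA lowered it by 0.15, and the differences of the 7 genes moved with it. The share of called genes that were higher was 57.9% in the main setting and 46.2% under median scaling. Under those scalings Id1 was at -0.04 and -0.01, so its sign depended on the scaling. Relative to the median of all genes in the main setting, Id2 stood at 1.18, Tcf4 at 1.04, Id1 at 0.04, Tcf12 at -0.18, Id3 at -0.56, Tcf3 at -0.66 and Id4 at -0.83. Tcf12 passed under median scaling (-0.25, limma adjusted p = 0.0261) and when the probes of a gene were averaged (-0.75, limma adjusted p = 0.0118), an average that holds the probe not well above background in OHT cells.

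**Figure D3:**
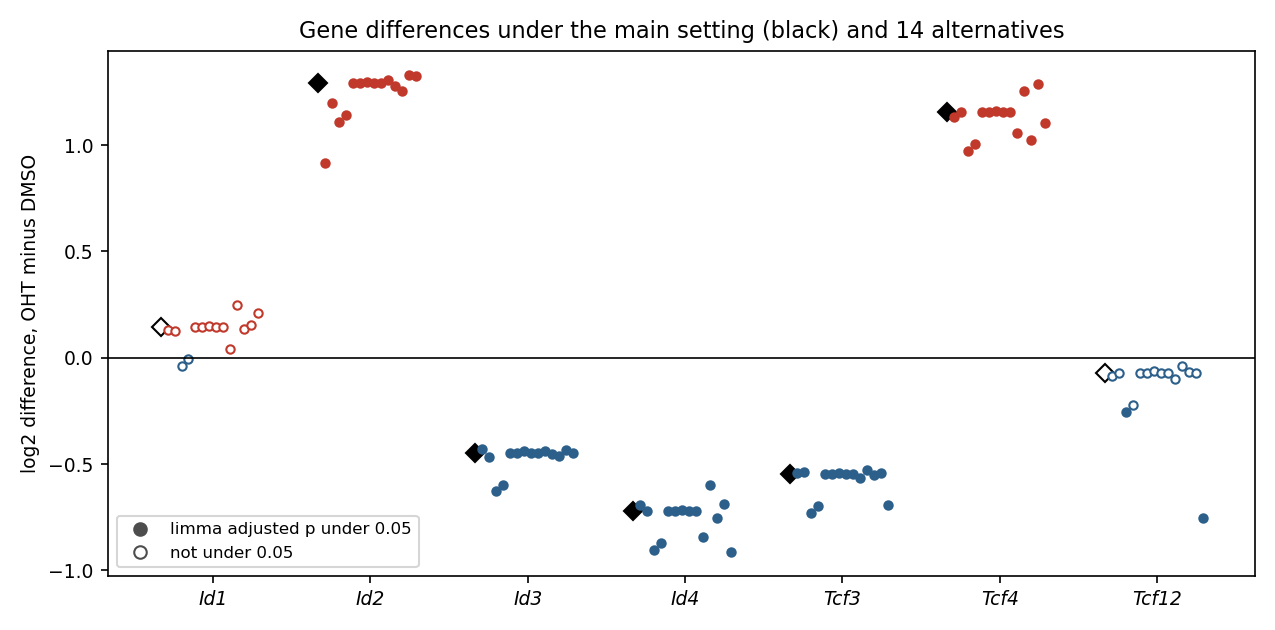
Log2 difference, OHT minus DMSO, of the 7 genes (horizontal axis) under the main setting (black diamonds) and 14 alternatives (circles); filled symbols have a limma adjusted p under 0.05. Id2 and Tcf4 stay above 0.9, Id3, Id4 and Tcf3 stay below -0.4, and Id1 lies on both sides of 0.

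The genes whose pattern over the 4 arrays was nearest to each ID gene, by Euclidean distance of centred log2 values among 13983 genes with a symbol that were well above background on all arrays, were as follows. Hs1bp3 (distance 0.0145) and Akr1b8 (0.0233) lay nearest to Id2, with differences of 1.29 each. These genes matched Id2 in size and in the small spread within groups. Tpd52l2 (0.0063) and Ppp3cb (0.00946) lay nearest to Id3, with differences of -0.45 each. C130036L24Rik (0.0324) and Wac (0.0345) lay nearest to Id4, at -0.74 and -0.71. Mef2d (0.0131) and Mrps28 (0.0214) lay nearest to Id1, at 0.15 and 0.13. With 4 arrays, likeness of this kind holds for many genes.

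Class II basic helix-loop-helix factors are the tissue-specific partners with which E proteins bind DNA. Of 37 listed, 19 fell below the filter of 2 arrays well above background, among them Myod1, Neurod1 and Ptf1a, and 18 were tested. Of those, 12 were higher and 5 lower (66.7% and 27.8%, against 40.3% and 29.3% of all genes), with a median of 0.44 against 0.11 over all genes. Under median scaling 8 were higher and the median was 0.26, and with normexp it was also 0.26. Bhlha15, a factor of secretory cells, read 706 and 743 in OHT cells, against 128 and 131 in DMSO cells (2.48 ± 0.07, limma adjusted p = 0.000369). A second, dimmer Bhlha15 probe did not share that rise (-0.20, limma adjusted p = 0.148 over all probes), and the mean of both probes gave 1.14. Tal1, a blood and endothelial factor, was at least 3.79-fold higher and Tal2 at least 2.11-fold higher in OHT cells. Neither was well above background on a DMSO array, so both entered the test only through the OHT arrays and are 2 of the 12; 10 were higher where all 4 arrays had to be well above background. Myog, the muscle factor myogenin, rose by 1.56 ± 0.13 (limma adjusted p = 0.00129), and by 0.87 with normexp. The 5 lower genes were Atoh8 (-1.38), Neurog3 (-1.21), Lyl1 (-0.63), Ascl2 (-0.59) and Tcf15 (-0.50). Tcf15, the brightest of the 18 tested, read 8287 and 9291 in OHT cells, against 12223 and 12631 in DMSO cells.

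Of 6 basic helix-loop-helix factors listed for germ cells, 4 were tested. Of these 4, 2 were lower and 1 higher (50% and 25%, against 29.3% and 40.3% of all genes). Their median was -0.51, and -0.30 with no filter on dim probes. Sohlh2, which drives spermatogonial differentiation, read 365 and 403 in OHT cells, against 5487 and 5103 in DMSO cells (-3.79 ± 0.09, limma adjusted p = 0.000369). Figla, an oocyte factor that dimerises with E proteins, read 217 and 263 in OHT cells, against 443 and 387 in DMSO cells (-0.80 ± 0.13, limma adjusted p = 0.00749). Mesp1, a mesoderm factor that is also among the higher genes of the class II list, was the higher one (0.37, limma adjusted p = 0.0401). Its call was lost under 8 of 14 alternatives, with 0.24 without OHT replicate 1, and its second probe gave 0.43.

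HES and HEY proteins are helix-loop-helix repressors, several of them Notch targets. The list of 11 also held Bhlhe40 and Bhlhe41, which are neither HES nor HEY genes. Of 11, 9 were tested, 4 were lower and 2 higher (44.4% and 22.2%, against 29.3% and 40.3% of all genes), with a median of -0.07 that ran from -0.25 under median scaling to 0.03 with no filter on dim probes. Hes1 fell to 88.7 and 87.2 in OHT cells, against 308 and 270.4 in DMSO cells (-1.72 ± 0.09, limma adjusted p = 0.000611), and Heyl fell by 1.68 ± 0.07 (limma adjusted p = 0.000483; -0.77 with normexp). Hes7, an oscillating gene of somite formation, was at least 2.71-fold lower in OHT cells, where it was not well above background; it entered the test only through the DMSO arrays, and 3 were lower where all 4 arrays had to be well above background. Bhlhe41 rose by 1.33 ± 0.12 (limma adjusted p = 0.00149), and by 0.65 with normexp. The other of the 2 higher genes was Hes6 (0.39 ± 0.06, limma adjusted p = 0.00652).

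Of 27 BMP pathway genes, which feed into Id transcription, 25 were tested, 13 were higher and 7 lower (52% and 28%, against 40.3% and 29.3% of all genes), with a median of 0.28. Under median scaling 9 were higher and 8 lower, with a median of 0.10. The ligand gene Bmp7 fell to 726 and 804 in OHT cells, against 3186 and 3028 in DMSO cells (-2.02 ± 0.08, limma adjusted p = 0.000467), while the ligand gene Gdf6 rose by 1.91 ± 0.10 (limma adjusted p = 0.000605). The type II receptor gene Acvr2b fell by 2.34 ± 0.12 (limma adjusted p = 0.000597). Nog, which encodes the secreted BMP antagonist noggin, was at least 1.79-fold lower in OHT cells, where it was not well above background; it entered the test only through the DMSO arrays, as Smad9 did through the OHT arrays, and with all 4 arrays required 12 were higher and 6 lower. The named genes include ligands that moved in opposite directions.

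Of 18 genes for cofactors and turnover of ID and E proteins, 17 were tested, 10 were lower and 6 higher (58.8% and 35.3%, against 29.3% and 40.3% of all genes), with a median of -0.22. Without OHT replicate 2, 5 were lower, with no filter on dim probes 6 were, and the median was -0.40 under median scaling. Usp1, a deubiquitinase that stabilises ID proteins, read 2003 and 2116 in OHT cells, against 5416 and 5280.4 in DMSO cells (-1.38 ± 0.07, limma adjusted p = 0.000557). Cbfa2t3 rose by 1.86 ± 0.06 (limma adjusted p = 0.000387) and Runx1t1 by 1.81 ± 0.10 (limma adjusted p = 0.00066), corepressors of the ETO family that E proteins recruit. Cbfa2t2, of the same family and brighter, was lower (-0.46 ± 0.07, limma adjusted p = 0.00556). It read 4575 and 4592 in OHT cells, against 6508 and 6070 in DMSO cells. Rbl2, a retinoblastoma relative, rose by 1.44 ± 0.12 (limma adjusted p = 0.00126), and by 0.99 with its second probe. The retinoblastoma gene Rb1 (-0.93 ± 0.06, limma adjusted p = 0.000839) and its relative Rbl1 (-0.32 ± 0.08, limma adjusted p = 0.0254) were lower.

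**Figure D4:**
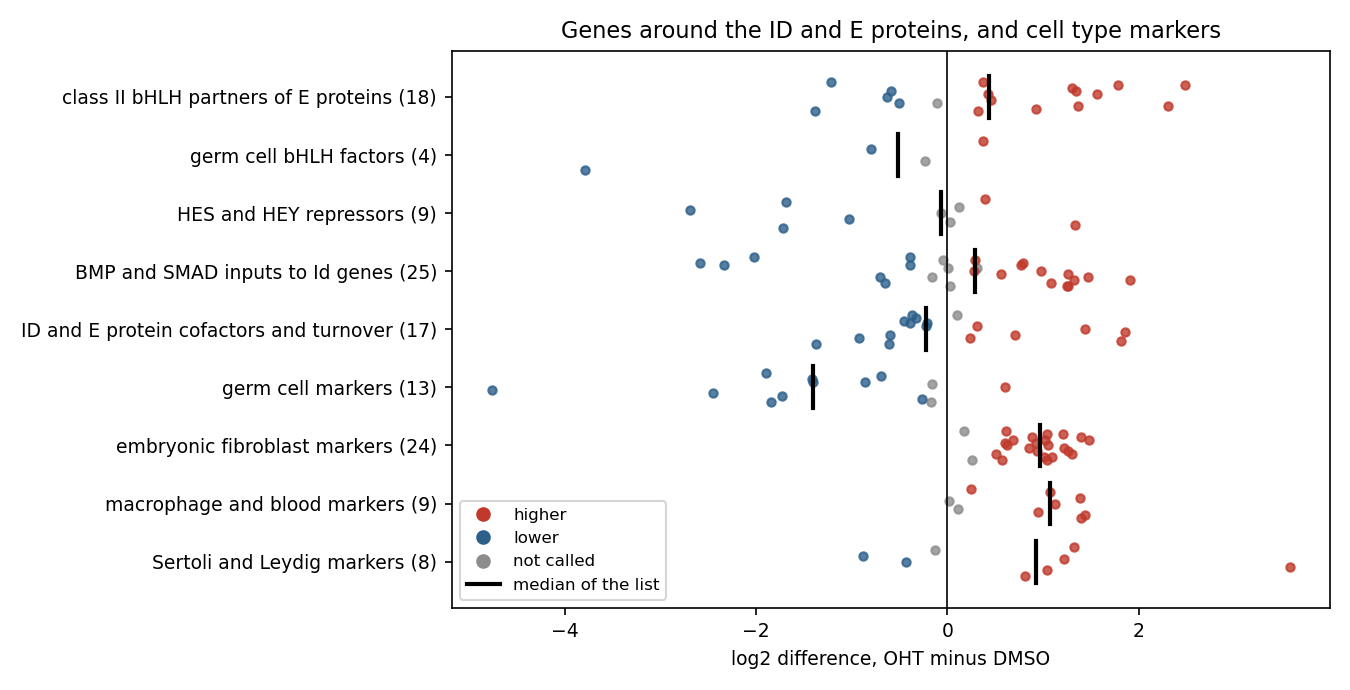
Log2 difference, OHT minus DMSO, of each tested gene (points, coloured by call) in 5 lists around the ID and E proteins and 4 lists of cell type markers, with the number tested in brackets and the list median as a black bar. Medians run from -1.41 (germ cell markers) to 1.07 (macrophage and blood markers), and the fibroblast markers lie right of 0.

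Other cell types were followed through their marker genes. Over all genes 40.3% were higher and 29.3% lower. Of 24 embryonic fibroblast markers, 22 were higher and 0 lower (91.7% and 0%). Their median was 0.97, against 1.29 for Id2 and 1.15 for Tcf4. Their summed signal was 503164 to 528074 in OHT cells, against 266426 to 305179 in DMSO cells, and the collagen gene Col1a2 (69729 and 66806 in OHT cells, against 40123 and 45147 in DMSO cells) was bright in both. By brightest probe, the 4 markers with the largest rises were Thbs1 (1.48), Pdgfrb (1.40), Twist2 (1.30) and Fbln5 (1.26). Dimmer Thbs1 probes, A_52_P337086 and A_52_P337092, gave smaller rises of 0.90 and 0.70, and Twist2 is also in the class II list. Of 9 tested macrophage and blood markers, 7 were higher and 0 lower (77.8% and 0%, median 1.07). Hba-a1 was at 1.44, Adgre1 at 1.40, Aif1 at 1.39 and Tyrobp at 1.12. With normexp the median of this list was 0.71, Hba-a1 was at 0.62 and Tyrobp at 0.71. Csf1r rose less (0.24), and Cd68 was not called (0.11). The summed signal of these 9 markers was 25928 to 26591 in OHT cells and 11861 to 13182 in DMSO cells. Most of it was Lyz2 (23679 and 24358 in OHT cells, against 10710.5 and 12158 in DMSO cells). Itgam was below the filter, and Ptprc was well above background on 1 array of each group. Of 8 tested Sertoli and Leydig markers, 5 were higher and 2 lower (62.5% and 25%, median 0.93). They summed to 8464 to 8913 in OHT cells and 3942 to 4378 in DMSO cells. The largest part was Inhbb (5544 and 5081 in OHT cells, against 2404 and 2768 in DMSO cells). Cldn11 (3.58), Dhh (1.33), Clu (1.22) and Inhbb (1.04) led, while Amh, Gata4, Cyp11a1 and Hsd3b1 were below the filter, and a second Inhbb probe gave 0.07 (0.55 for the mean of both). The Sertoli marker Wt1 (-0.88, limma adjusted p = 0.00218) and the Leydig marker Cyp17a1 (-0.43, limma adjusted p = 0.0256) were lower, and Star was not called (-0.13). Of 13 germ cell markers, 10 were lower and 1 higher (76.9% and 7.69%). Their median was -1.41, -0.86 once the bound replaces the fitted value of Ret, and -0.72 with normexp. Nanos3 was at -4.77, Gfra1 at -2.45 and Pou5f1 at -1.85, and Ret, which entered the test only through the DMSO arrays, was at least 1.26-fold lower in OHT cells. Ddx25 was the marker that rose (0.60 ± 0.06, limma adjusted p = 0.00195), and Sall4 was not called (-0.16). The summed signal of the 13 germ cell markers was 131286 to 135746 in OHT cells, against 182768 to 183621 in DMSO cells. The part of these shifts in the differences of Id2, Tcf4 and the other ID and E protein genes was not tested.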

How the data were processed

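RNA from 4 samples was read on 1-colour arrays of Agilent design 014868, all on 1 slide. The deposited scanner files hold intensity values per spot. Per the file headers, Feature Extraction 10.7.3.1 subtracted background and detrended each array; version 9.5 is named in the submitters' processing notes. The deposited value table holds log2 values, equal to the log2 processed intensity plus a constant per array (0.275 to 0.362).

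Spots flagged as outliers (60 to 71 on each array) and control spots were left out, spots of a probe were averaged, and log2 processed intensity minus each array's 75th percentile was used. A probe was kept if 2 or more of the 4 arrays had it well above background (26393 probes), and the brightest probe stood for a gene (17537). Names came from a RefSeq table (GRCm38.p6), which matched 33636 of 41174 probes. The comparison used lmFit and eBayes of limma 3.58.1 (R 4.3.3) and Benjamini-Hochberg adjustment over all genes or all probes, at 0.05. Only the limma fit was tested on simulated data. An exact two-sided permutation test of 2 arrays against 2 cannot go below 0.333, so each p rests on the spread limma pools over genes. Whether replicates came from separate cultures is not stated in the labels. A p-value here covers the spread among these 4 arrays, possibly technical, and 2 arrays per group limit the precision.

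The 7 genes and the lists were chosen with earlier results of these data known. Named by rule were the 7, Nanos2, up to 4 called genes of largest difference per list, and the 2 genes nearest each ID gene. Smad9, Cbfa2t2, Rb1, Rbl1, Atoh8, Neurog3, Lyl1, Ascl2, Tcf15, Hes6 and Bhlhe40 were named after their values were seen. So were, among markers, Wt1, Cyp17a1, Star, Col1a2, Lyz2, Csf1r, Cd68, Ddx25, Sall4, Ddx4, Dazl, Amh and others at background. Sohlh1, Zbtb16 and Hbb-b1 were not analysed here. Alternatives covered background correction (normexp, offset 50), scaling, the filter, the deposited table, the model, averaging of probes and leaving out each array.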

Additional observations from a re-analysis of the deposited data

How the results depend on the processing

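Across 14 alternatives, 94 of 98 values of the 7 genes kept their direction and their side of the threshold. The exceptions were Id1, which changed sign without passing under median scaling (-0.037) and spike-in scaling (-0.00496), and Tcf12, which passed under median scaling (-0.25) and with the mean of its probes (-0.75). The same Id1 probe changed sign in the fit over probes. Leaving out each array gave 1.25 to 1.33 for Id2, 1.02 to 1.29 for Tcf4, -0.84 to -0.60 for Id4, -0.57 to -0.53 for Tcf3, -0.46 to -0.43 for Id3, 0.04 to 0.25 for Id1 and -0.10 to -0.04 for Tcf12. The count of genes called ran from 9694 (spike-in scaling) to 12748 (eBayes with trend), against 12195, and with the replicate block it was 11047. Deviations of equally numbered arrays correlated at -0.0451 across genes, the numbers were not taken as pairs, and the block changed no call of the 7 genes. Of the calls, 57.9% were higher, against 46.2% under median scaling. With normexp, 13 of the 35 list genes named by rule moved by over 1.5 times, all 13 to a smaller size, and each kept its direction and call. Probes close to background, as for Tcf12, are limited by it, and 2 arrays per group limit each value.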
